A study of Mus musculus with 10 samples.

Results

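The genes described here are 33 mouse genes of glucose use: the carriers that bring glucose in and take lactate out, the enzymes of glycolysis, the enzymes of the pentose phosphate pathway, and a few regulators of both. They were listed by their known function, with earlier results of these data known. All 33 had at least 1 RNA polymerase II promoter peak assigned to them, of 10419 genes with such a peak in any library. The measurements are chromatin immunoprecipitation and sequencing (ChIP-seq) of polymerase II with the antibody 8WG16 (ab817) in primary Th1 cells of Balb/c DO11.10 mice, a strain whose T cells carry a transgenic receptor. Per the labels' protocols, CD4+ cells were primed under Th1 conditions, expanded, rested and then either left without restimulation (NR) or given plate-bound anti-CD3 with soluble anti-CD28 for 30 min or 2 h. Each of the 3 groups has 2 libraries. The labels number them as replicates without tying them to separate animals or cultures, so every p-value refers to the spread of these 6 libraries alone, and that spread may be technical.

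Glycolysis splits glucose into pyruvate in the cytosol and yields ATP and NADH without oxygen. Lactate dehydrogenase turns pyruvate into lactate and restores the NAD+ that glyceraldehyde 3-phosphate dehydrogenase needs. The pentose phosphate pathway branches off at glucose 6-phosphate and supplies NADPH and the ribose of nucleotides. T cells stimulated through their receptor are known for taking up more glucose and releasing lactate even where oxygen is present, and Myc and HIF-1 are the transcription factors usually named as drivers of these genes. Polymerase II often pauses a short way downstream of a gene's start, so a ChIP-seq peak commonly sits there, and polymerase that moves on spreads signal into the gene body.

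The deposited lists hold peaks and no read counts. The value compared between libraries was therefore called length, the number of base pairs (bp) of promoter peak that the authors assigned to a gene. Called length also depends on how deeply a library was sequenced. The files give no read totals. A rough guide to depth is the lowest local background in a list, worked out from its fold enrichments, divided by the list's pileup step. The pileup is the signal at a summit, and the step is the usual spacing between its values. The step was 1 in the replicate 1 libraries. It was 0.58, 0.71 and 0.65 in replicate 2 of NR, 30 min and 2 h, so those lists hold scaled pileups. Taking NR replicate 1 as 1, the guide was 8.94 in NR replicate 2. It was 2.39 and 7.07 in the 30 min libraries and 3.76 and 8.43 in the 2 h libraries. The number of promoter peaks ran from 9074 in 30 min replicate 1 to 10680 in 30 min replicate 2. The T cell markers were present throughout, with 9 of 9 in every library, and 5 or 6 of 6 Th1 markers had a peak. Of the B cell (6), myeloid (6) and NK cell (3) markers none had a peak in any library, Cd8a had none, and Cd8b1 (314 to 576 bp) was found in the replicate 2 libraries alone. Of 3 erythroid markers, Klf1 had a peak in NR replicate 2 (869 bp) and 2 h replicate 2 (792 bp).

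The promoters of 6 of the genes are shown because the results turn on them. Gapdh, Pkm, Pfkfb3, Hk2 and Ldha had the 5 highest log2 changes in called length at 2 h, and Pdha1 had a called length that hardly differed between any of the libraries. The Pfkfb3 window belongs to the first of the 2 starts that its peaks were assigned to. The Pkm window precedes a RefSeq start 208 bp downstream of the start that its peaks were assigned to. The sequences are the 250 bases before the RefSeq start on the gene's own strand, from build GRCm38.p6, which has the coordinates of mm10. Capitals mark CACGTG, the E-box core that Myc and Max bind, and ACGTG or GCGTG, the cores of the hypoxia response element that HIF-1 binds, read on either strand. CACGTG contains ACGTG on both strands. The windows are chr6:125165774-125166023 (minus strand) for Gapdh, chr6:82774455-82774704 (minus) for Hk2, chr7:46845554-46845803 (plus) for Ldha, chr9:59656326-59656575 (plus) for Pkm, chr2:11553930-11554179 (minus) for Pfkfb3 and chrX:160138431-160138680 (minus) for Pdha1.
Gapdh: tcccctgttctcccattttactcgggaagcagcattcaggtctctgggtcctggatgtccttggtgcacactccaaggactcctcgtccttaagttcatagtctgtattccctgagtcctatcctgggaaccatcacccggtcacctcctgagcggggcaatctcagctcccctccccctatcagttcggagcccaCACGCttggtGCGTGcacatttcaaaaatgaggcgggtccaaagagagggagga
Hk2: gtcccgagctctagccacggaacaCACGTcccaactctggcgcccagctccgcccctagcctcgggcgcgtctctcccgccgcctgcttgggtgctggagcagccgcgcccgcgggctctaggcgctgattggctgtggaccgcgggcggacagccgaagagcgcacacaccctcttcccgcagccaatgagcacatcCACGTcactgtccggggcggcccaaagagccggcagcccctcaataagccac
Ldha: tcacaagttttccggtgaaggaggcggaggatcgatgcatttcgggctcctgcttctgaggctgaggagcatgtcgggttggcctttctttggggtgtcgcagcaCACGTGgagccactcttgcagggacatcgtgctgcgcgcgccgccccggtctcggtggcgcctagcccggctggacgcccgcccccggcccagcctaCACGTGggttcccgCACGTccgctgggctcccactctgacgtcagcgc
Pkm: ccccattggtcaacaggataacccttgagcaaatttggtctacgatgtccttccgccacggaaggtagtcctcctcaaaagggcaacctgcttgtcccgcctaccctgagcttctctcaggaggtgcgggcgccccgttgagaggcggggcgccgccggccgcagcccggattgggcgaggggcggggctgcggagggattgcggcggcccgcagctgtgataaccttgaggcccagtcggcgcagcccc
Pfkfb3: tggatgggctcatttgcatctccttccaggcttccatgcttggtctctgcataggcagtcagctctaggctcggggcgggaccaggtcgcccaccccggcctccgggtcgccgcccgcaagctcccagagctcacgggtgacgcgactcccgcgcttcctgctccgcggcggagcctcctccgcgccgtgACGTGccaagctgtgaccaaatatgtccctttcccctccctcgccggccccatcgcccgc
Pdha1: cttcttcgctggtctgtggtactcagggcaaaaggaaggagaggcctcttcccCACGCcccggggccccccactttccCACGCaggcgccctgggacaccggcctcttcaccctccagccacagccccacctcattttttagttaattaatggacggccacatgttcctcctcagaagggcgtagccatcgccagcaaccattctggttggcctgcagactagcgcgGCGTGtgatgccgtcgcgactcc

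In these windows Ldha held CACGTG at bases -145 to -140 and -48 to -43 from its start, and a separate ACGTG at -34 to -30. Hk2 held ACGTG at -226 to -222 and -52 to -48, and Pfkfb3 held it at -60 to -56. Gapdh held GCGTG at -54 to -50 and -44 to -40. Pdha1 held GCGTG at -197 to -193, -172 to -168 and -23 to -19, so the motif was found in a gene whose peak stayed about as long as well as in those whose peak was longer. None of the motifs was in the Pkm window, which says only that these letters are absent from it. Most of that window lies downstream of the start used for the Pkm peak, so little of the sequence before that start was searched. Over windows of 250 bases before to 50 after the start, 32 of the 33 genes matched the RefSeq promoter table, all but Slc2a3. CACGTG was in 4 of the 32 (12.5%), against 7.15% of 32851 promoters in that table. ACGTG was in 16 (50%, against 19.6%), GCGTG in 18 (56.2%, against 32.4%), and either core in 27 (84.4%, against 43.8%). The windows of these genes also had a median GC content of 61.4%, against 52.4% over the table, and how far base composition accounts for the shares was not tested. A match is a run of letters, not evidence of binding.

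Nearly all of the genes already had polymerase at the promoter before restimulation. A peak was assigned to 32 and 33 of the 33 genes in the NR libraries, 31 and 33 in the 30 min libraries and 32 and 33 in the 2 h libraries. Only Ldhb and Taldo1 lacked one anywhere. Of the 10419 genes with a peak in any library, 8359 and 9405 had one in the NR libraries. The numbers were 8058 and 9704 at 30 min and 9310 and 9700 at 2 h. No member had a peak in both libraries of a restimulated group and neither NR library, or the reverse. Of the 10419 genes, 39 gained and 38 lost a peak in this way at 30 min, and 268 and 69 at 2 h. These are small shares, so 0 of 33 does not set the members apart. The summit of the most enriched peak mostly lay just inside the gene. For 30 of the genes it was measured from the same start in every library where they had a peak, and the other 3, Hif1a, Pfkfb3 and Slc16a3, had peaks assigned to 2 starts. The median distance over the 30 genes, each taken at its own median, was 87.2 bp downstream, and for 16 of them every library put the summit 0 to 300 bp downstream. For Gapdh the summit stayed within 197 to 202 bp of the start in all 6 libraries, and for Pkm within 231 to 266 bp. Pfkfb4 (-385 to -337 bp) and Rpia (-273 to -58 bp) had the summit upstream of the start in all 6 libraries, and Pfkm (653 to 908 bp) and Gpd2 (473 to 784 bp) had it farther inside the gene.

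The members spanned a wide range of enrichment within a library. The fold enrichment that the authors' peak caller gave to each peak was turned into a percentile among the promoter peaks of the same library. The median percentile of the members was 70.3 and 74.3 in the NR libraries, 65.2 and 77.6 at 30 min and 78.6 and 81.7 at 2 h. Ldha, which makes the muscle-type subunit of lactate dehydrogenase, lay between 96.7 and 99.7 in all 6 libraries. Pkm, the pyruvate kinase gene that also encodes the M2 form, lay between 96.2 and 99.9, and Gapdh between 96.5 and 99.8. Ldhb, the heart-type subunit, was at the other end, with 6.47, 7.79 and 2.61 in the 3 libraries where it had a peak. Hk2 stood at 57.7 and 72.3 in NR, 87.0 and 94.9 at 30 min and 98.1 and 99.6 at 2 h. These ranks come from lists of different lengths, so they place a gene within a library and do not measure a change.

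**Figure D1:**
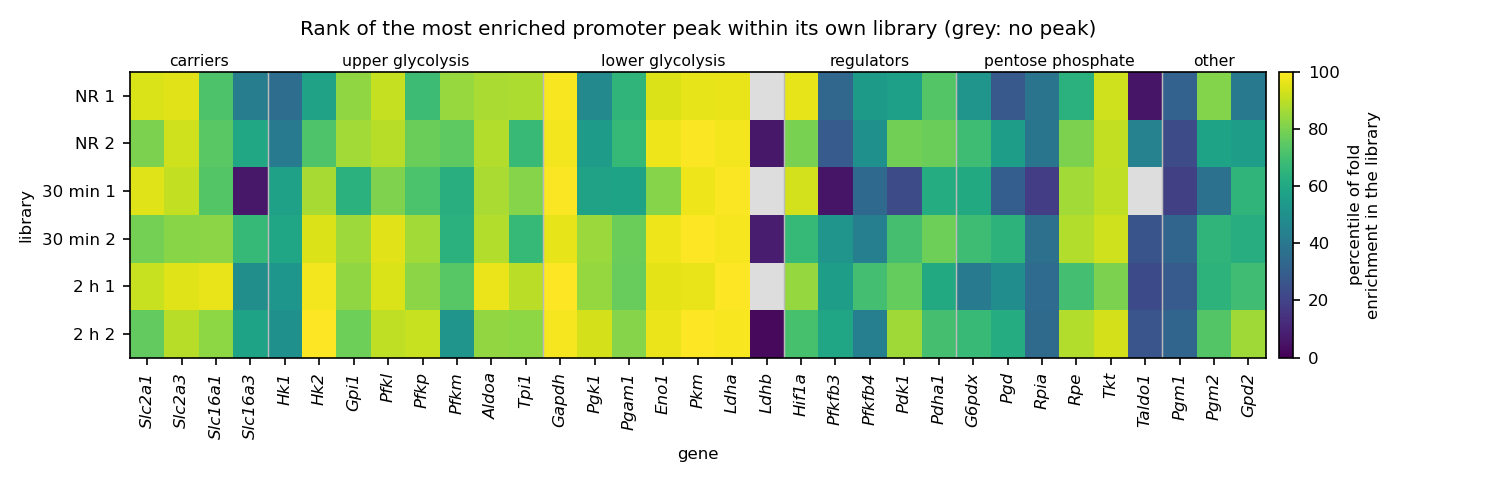
Percentile of fold enrichment of each gene's most enriched promoter peak among the promoter peaks of the same library (colour, 0 to 100); rows are the 6 libraries, columns the 33 genes by role, grey means no peak. Gapdh, Pkm and Ldha lie above 96 in every library, and Ldhb lies below 8 wherever it has a peak.

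At 2 h the promoter peaks of most of these genes were longer than before restimulation, and more often than for genes in general. In 27 of the 33 genes (81.8%) both 2 h libraries had a longer called length than both NR libraries, where 52.3% of the 9908 genes tested did so. None was shorter in both, against 2.09% of genes. The members were chosen with earlier results of these data known. Of 37 further genes of the same pathways, 18 (48.6%) were longer in both 2 h libraries. A peak was present in all 6 libraries for 31 of the members but for only 7410 of the genes. The share among those 7410 was not worked out. The 6 genes whose groups overlapped were Gpi1, Pfkm, Ldhb, Pfkfb4, Rpe and Taldo1. At 30 min both libraries were longer than both NR libraries in 8 of 33 genes (24.2%), Hk1, Pfkp, Aldoa, Pgk1, Pkm, Ldha, Hif1a and Pdha1, against 11.5% of all genes, and shorter in none, against 1.16%. Both comparisons use the same NR libraries. Between the times, 7 genes were longer in both 2 h libraries than in both 30 min libraries, against 17% of all genes, and 1, Pdha1, was shorter, against 0.727%.

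Because 52.3% of the genes tested were longer in both 2 h libraries, the tests were run on log2(bp + 100) with each library centred on its own median gene. A log2 change is therefore a change relative to that median and understates the change of short peaks. Without centring, the median of all genes was 0.12 higher at 30 min and 0.45 higher at 2 h than in NR, and that of the members 0.17 and 0.72 higher. With centring, the members' median was 0.01 at 30 min and 0.24 at 2 h, against -0.04 and -0.03 for all genes. No member passed an adjusted p of 0.05 in any of the 3 comparisons (limma, Benjamini-Hochberg over all genes). Over all genes 0.232% were called longer and 0.0101% shorter at 30 min, 0.373% and 0.0606% at 2 h, and 0% in either direction between the times. At an unadjusted p under 0.05, 5 members were longer at 30 min (5.85% of all genes) and 2 shorter (2.15%). At 2 h 7 were longer (7.95%) and 0 shorter (4.65%), and between the times 0 were longer (2.26%) and 0 shorter (2.92%). With lengths centred, 14 of 33 members were longer in both 2 h libraries than in both NR libraries, against 22.3% of all genes.

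**Figure D2:**
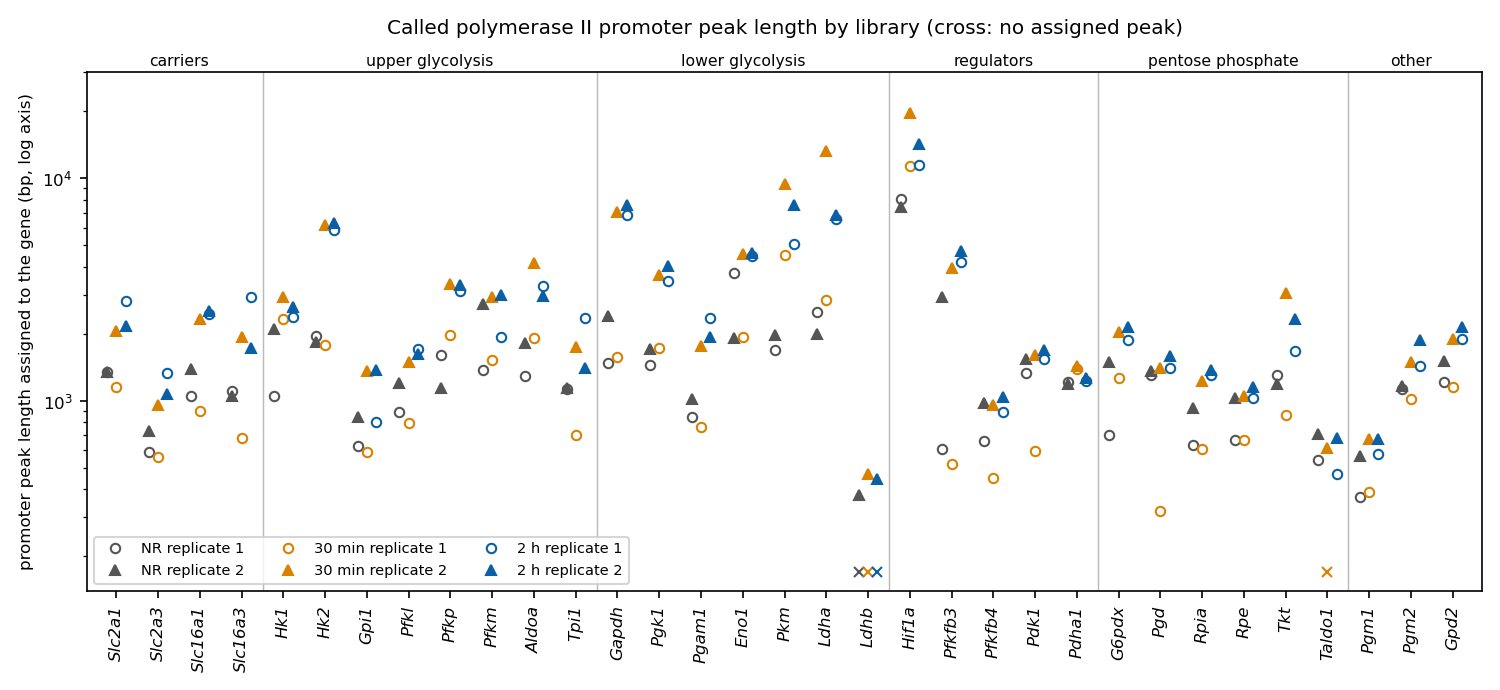
Promoter peak length assigned to each of the 33 genes (bp, log axis) in the 6 libraries; circles are replicate 1, triangles replicate 2, grey NR, orange 30 min, blue 2 h, and a cross marks no assigned peak. Both blue points lie above both grey points for 27 genes, while the orange circle mostly lies with the grey points and the orange triangle with the blue ones.

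The 30 min libraries differed from each other more than the other pairs did. Replicate 1 had a median called length over the members of 899 bp, below the 1135 and 1351 bp of the NR libraries, and replicate 2 had 1937 bp, close to the 1941 and 2136 bp at 2 h. Replicate 1 was shorter than NR replicate 2 in 24 of 33 members (82.1% of all genes), while replicate 2 was longer in 31 (87.2%). Against NR replicate 1, 30 min replicate 1 was shorter in 19 members (49.6% of all genes) and longer in 12 (37.9%). Without it, 31 of the 33 members rather than 8 were longer in the remaining 30 min library than in both NR libraries, as were 86.4% of all genes. The 30 min libraries differed in depth in the same direction, and the part of depth in this difference was not tested. The part of depth in the 2 h result was not tested either. In one pair of libraries, 2 h replicate 1 had a lower value of the guide to depth than NR replicate 2, 3.76 against 8.94. It was longer than NR replicate 2 in 27 of 33 members, against 55.2% of all genes. Of the other pairs, 2 h was longer than NR in 32 members in replicate 2 (85.8% of all genes) and in 31 in replicate 1 (81%). It was longer than 30 min in 22 members in replicate 2 (54.9%) and in 31 in replicate 1 (87.3%). Within replicate 2, the median ratio of 2 h to NR length was 1.61 over the members and 1.28 over all genes. Within replicate 1 the same ratio was 2.01 against 1.41. The corresponding ratios of 30 min to NR were 1.4 against 1.24 in replicate 2 and 0.944 against 0.959 in replicate 1.

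At 2 h most of the peaks extended farther downstream of the start, and the difference upstream was smaller in bp. Reach was measured for the 28 members, and 7052 genes, whose most enriched peak was assigned to the same start in all 6 libraries. That peak reached farther into the gene in both 2 h libraries than in both NR libraries in 24 of the 28, against 60.9% of genes. It reached farther upstream in 17, against 37.5%. The median difference between the group means was 558 bp downstream and 141 bp upstream for the members, and 204 and 79.0 bp for all genes. The exceptions downstream were Gpi1, Pdha1, Pfkfb4 and Pgm1. Peaks of 8 members also covered the start of another gene: besides Pkm, Pfkfb3, Pdha1 and G6pdx, described with their values, these were Slc2a1 (Gm52706), Hk1 (Hk1os), Pfkm (Senp1) and Pgm2 (BC062258), and the lists cannot divide such a peak. At 30 min the peak reached farther downstream than in NR in both libraries in 7 of the 28 (18.8% of genes) and farther upstream in 0 (10.9%). Between the times it reached farther downstream at 2 h in 8 (22.7%) and farther upstream in 6 (14.7%).

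**Figure D3:**
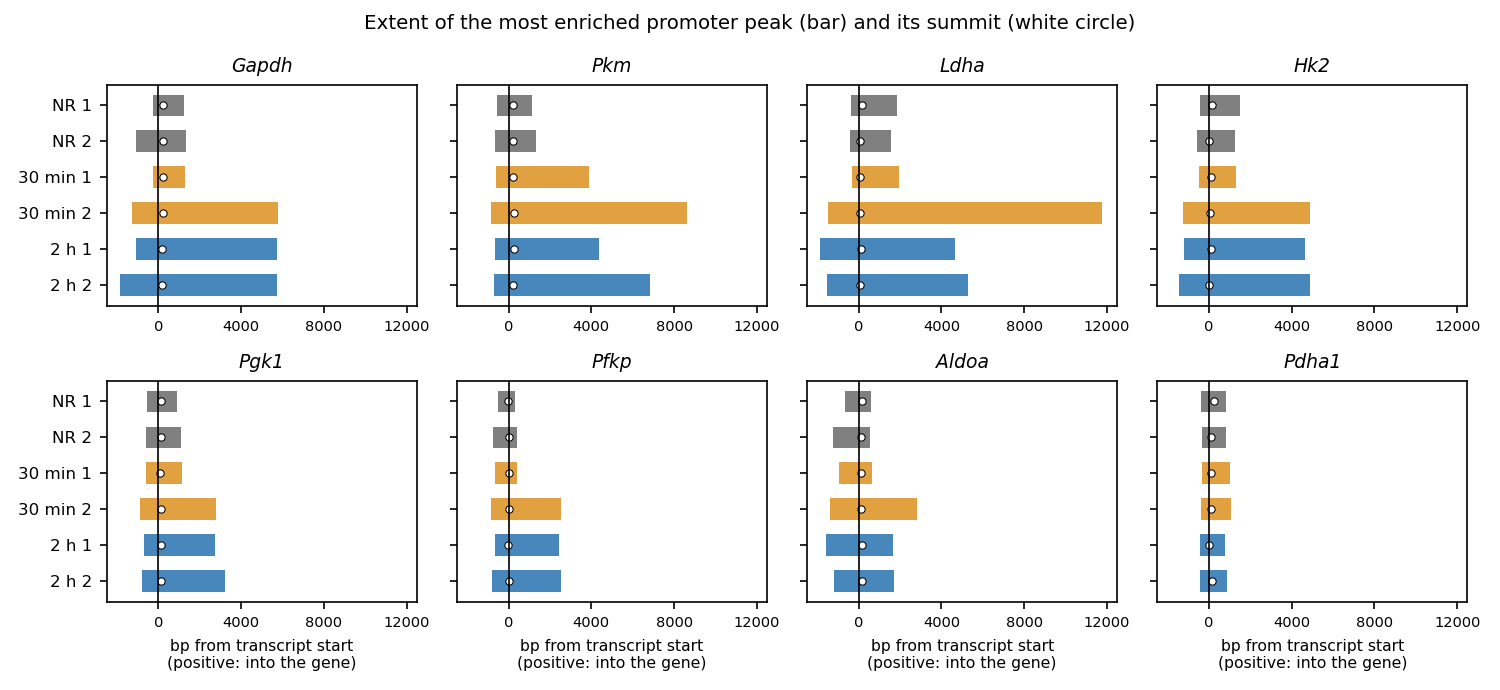
Extent of the most enriched promoter peak of 8 genes (bar) and its summit (white circle) in bp from the transcript start, positive into the gene, for the 6 libraries. The summits stay near the start, and the downstream ends of Gapdh and Hk2 lie at 1241 to 1511 bp in NR and at 4665 to 5776 bp in the 2 h libraries and in 30 min replicate 2, while Pdha1 ends between 798 and 1055 bp throughout.

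All 4 carrier genes had longer peaks in both 2 h libraries than in both NR libraries, as did 52.3% of all genes tested. Slc2a1, the basal glucose carrier GLUT1, had called lengths of 1353 and 1351 bp in NR, 1149 and 2052 bp at 30 min and 2821 and 2171 bp at 2 h. Both 2 h values lay above all 4 others, and the log2 change from NR was 0.35 (SE 0.24, adjusted p = 0.580). Slc2a3, the high-affinity carrier GLUT3, had 591 and 730 bp, then 558 and 959 bp, then 1335 and 1074 bp. Its 2 h libraries were also the longest of the 6, with a log2 change of 0.30 (SE 0.24, adjusted p = 0.628). Slc16a3 encodes MCT4, which exports lactate. It had 1103 and 1047 bp in NR, 683 and 1937 bp at 30 min and 2925 and 1719 bp at 2 h, so that 30 min replicate 2 lay between the 2 h values (log2 change at 2 h 0.52, SE 0.39, adjusted p = 0.606). Over the 4 carriers, which include Slc16a1 (MCT1), the median log2 change at 2 h was 0.43. At 30 min that median was -0.00 and all 4 overlapped with NR, where 11.5% of all genes were longer and 1.16% shorter in both libraries.

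In upper glycolysis, from glucose to the triose phosphates, Hk2, Pfkp and Aldoa had the highest values. Hk2 encodes hexokinase 2, which traps glucose in the cell as glucose 6-phosphate. Its called length was 1963 and 1832 bp in NR, 1788 and 6152 bp at 30 min, and 5881 and 6309 bp at 2 h. The 30 min libraries split, replicate 1 with NR and replicate 2 with 2 h. Its centred log2 change was 0.62 at 30 min (SE 0.34, adjusted p = 0.711) and 1.16 at 2 h (SE 0.34, adjusted p = 0.306). The peak's downstream end lay 1511 and 1263 bp from the start in NR, 1289 and 4885 bp at 30 min, and 4665 and 4885 bp at 2 h.

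Pfkp, the platelet-type phosphofructokinase of the main control step, had 1603 and 1141 bp in NR, 1977 and 3348 bp at 30 min and 3128 and 3329 bp at 2 h. Here both 30 min libraries exceeded both NR libraries, with replicate 2 at the level of 2 h. Against NR, the log2 change was 0.72 at 30 min (SE 0.27, adjusted p = 0.607) and 0.72 at 2 h (SE 0.27, adjusted p = 0.378). Aldoa, the aldolase that splits fructose 1,6-bisphosphate, had 1290 and 1818 bp, then 1907 and 4175 bp, then 3267 and 2946 bp. Its longest value was in 30 min replicate 2, and the log2 changes were 0.68 (SE 0.19, adjusted p = 0.441) and 0.50 (SE 0.19, adjusted p = 0.391). The platelet-type enzyme stood above the other phosphofructokinase genes, since Pfkl and Pfkm had log2 changes of 0.16 and -0.18 at 2 h, but that difference was not tested. Of the 8 genes, 6 (75%) were longer in both 2 h libraries than in both NR libraries, against 52.3% of all genes. The median log2 change was 0.20, and Gpi1 and Pfkm overlapped. At 30 min 3 of 8 (37.5%) were longer, against 11.5% of all genes, with a median of 0.36.

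Lower glycolysis, from the triose phosphates to pyruvate and lactate, had the highest median of the role groups at both times, 0.49 at 30 min and 0.71 at 2 h. Pkm had the lowest adjusted p of any member. Its called length was 1683 and 1983 bp in NR, 4505 and 9454 bp at 30 min and 5038 and 7557 bp at 2 h. All 4 restimulated libraries lay above both NR libraries, by a factor of more than 2, with no order between the times. Its log2 change was 1.62 at 30 min (SE 0.20, adjusted p = 0.0720) and 1.23 at 2 h (SE 0.20, adjusted p = 0.0961). When only genes with a peak in all 6 libraries were tested, the 30 min change passed the threshold (adjusted p = 0.0262). Over the genes so tested, 52 were called longer and 1 shorter. The peak also covers the start of a predicted gene, Gm51708, in all 6 libraries, and the lists cannot divide it between them. It covered 4.01% and 4.96% of the gene in NR, 16.2% and 36.9% at 30 min and 18.3% and 29.2% at 2 h.

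Gapdh, which makes the dehydrogenase that couples triose oxidation to NADH, split at 30 min as Hk2 did. Its called length was 1486 and 2397 bp in NR, 1569 and 7066 bp at 30 min and 6829 and 7563 bp at 2 h. Replicate 1 at 30 min lay inside the NR range while replicate 2 lay with 2 h. The log2 change was 0.64 at 30 min (SE 0.43, adjusted p = 0.737) and 1.40 at 2 h (SE 0.43, adjusted p = 0.320), the highest of the 33 genes. With only the 4 NR and 2 h libraries compared, the 2 h change passed the threshold. Over all genes that setting called 147 longer and 29 shorter, against 37 and 6 with all 6 libraries. The downstream end was 1241 and 1314 bp from the start in NR, 1305 and 5776 bp at 30 min, and 5744 and 5731 bp at 2 h. In the last 3 of these libraries the peak covered 100% of the gene, a short one of 4616 bp, against 32.2% and 43.5% in NR and 34.0% in 30 min replicate 1. A peak that covers the whole gene cannot show any further spread within it.

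Ldha had 2500 and 1990 bp in NR, 2837 and 13273 bp at 30 min and 6554 and 6809 bp at 2 h. All restimulated libraries were longer than NR, but 30 min replicate 1 exceeded NR replicate 1 by little, and replicate 2 was by far the longest. The log2 change was 1.27 at 30 min (SE 0.49, adjusted p = 0.615) and 1.06 at 2 h (SE 0.49, adjusted p = 0.449). Of the 13354 bp RefSeq gene, peaks covered 18.7% and 14.9% in NR. The shares were 21.2% and 84.8% at 30 min and 49.1% and 51.0% at 2 h. In NR replicate 1 and 30 min replicate 1 they add up 2 peaks. The RefSeq gene begins at 46842274, upstream of the start at 46845804 from which summit and reach were measured. In 30 min replicate 2 the peak ran from 46844299 to 46857571, past the gene's end at 46855627. From that start on, this peak covered the whole gene and could show no further spread within it. Pgk1, the kinase gene that makes the first ATP of the pathway, had 1449 and 1712 bp in NR, 1727 and 3668 bp at 30 min and 3435 and 4032 bp at 2 h. Both 2 h libraries and 30 min replicate 2 stood above the rest, and 30 min replicate 1 was barely above NR replicate 2. Its log2 change was 0.49 at 30 min (SE 0.15, adjusted p = 0.484) and 0.71 at 2 h (SE 0.15, adjusted p = 0.158).

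Ldhb stood apart from the rest of the group. It had no peak in NR, 30 min or 2 h replicate 1, and 378, 471 and 444 bp in the replicate 2 libraries in the same order. A peak was thus found in replicate 2 of every group and in no replicate 1 library. The replicate 2 libraries also had the higher guide to depth and scaled pileups. These cannot be told apart here, and the part of each was not tested. The log2 change at 2 h was -0.38 (SE 1.32, adjusted p = 0.914). In total 6 of the 7 lower glycolysis genes (85.7%), all but Ldhb, were longer in both 2 h libraries than in both NR libraries. Of all genes 52.3% were. Pgam1 and Eno1, whose enzymes lead from phosphoglycerate to phosphoenolpyruvate, had log2 changes at 2 h of 0.64 and 0.26.

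**Figure D4:**
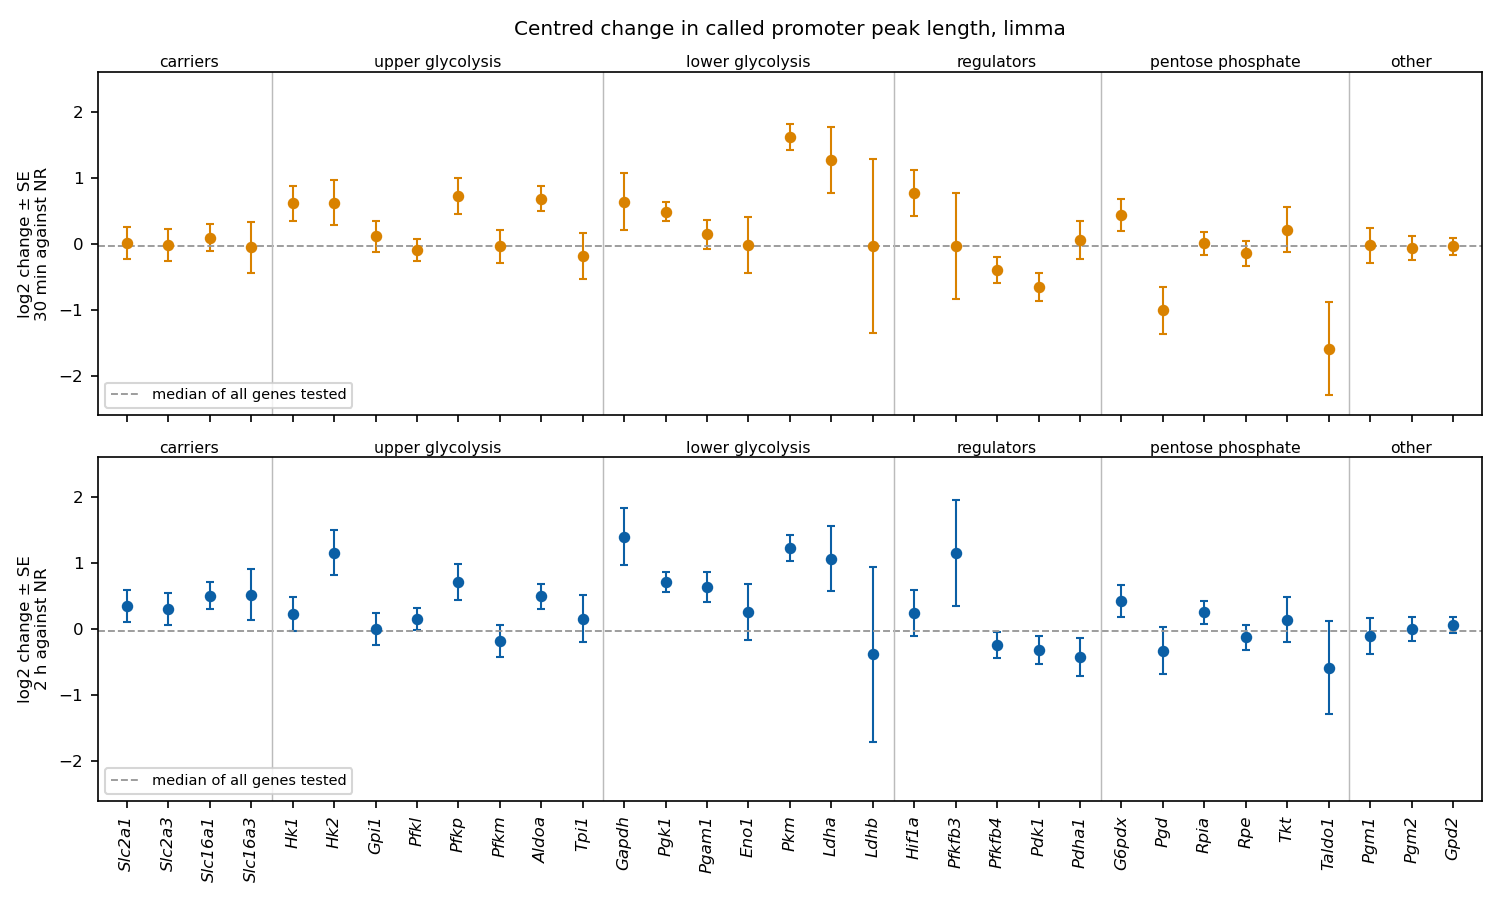
Centred log2 change in called promoter peak length against NR for the 33 genes by role, with the limma standard error as bars, at 30 min (upper panel) and 2 h (lower panel); the dashed line is the median of all genes tested. Pkm stands highest at 30 min and Gapdh at 2 h, Ldhb, Taldo1 and Pfkfb3 have the widest bars, and no gene passes the adjusted threshold.

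After centring, the regulators showed no common direction, with a median log2 change of -0.04 at 30 min and -0.24 at 2 h. Before centring, 4 of the 5 (80%) were longer in both 2 h libraries than in both NR libraries, against 52.3% of all genes. None was shorter in both. At 30 min 2 of the 5 (40%) were longer, against 11.5%. Pfkfb3 makes the enzyme that forms fructose 2,6-bisphosphate, the activator of phosphofructokinase. It had 608 and 2926 bp in NR, 522 and 3965 bp at 30 min and 4196 and 4716 bp at 2 h. Both 2 h libraries were the longest, but the NR and 30 min pairs each held 1 short and 1 long library. The log2 change was -0.04 at 30 min (SE 0.80, adjusted p = 0.999) and 1.16 at 2 h (SE 0.80, adjusted p = 0.584). These lengths add up peaks at 2 starts, 51839 bp apart within the gene. At the first start, the one whose promoter is printed, the peak measured 608 and 1141 bp in NR, 522 and 1243 bp at 30 min and 1068 and 1660 bp at 2 h. At the second, internal start there was no peak in NR replicate 1 or 30 min replicate 1, 1785 bp in NR replicate 2, 2722 bp in 30 min replicate 2, and 3128 and 3056 bp at 2 h. The internal start thus carried the longer part of the called length in 4 libraries, and the peak there also covered the start of the predicted gene Gm52500. The most enriched peak of the gene was at the first start in both NR libraries and 30 min replicate 1 and at the internal start in the other 3.

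Hif1a encodes the oxygen-regulated subunit of HIF-1 and had the longest called length of the members in every library. It had 8055 and 7429 bp in NR, 11314 and 19533 bp at 30 min and 11485 and 14233 bp at 2 h. All 4 restimulated libraries exceeded both NR libraries, and 30 min replicate 2 was the longest. Against NR, the log2 change was 0.77 at 30 min (SE 0.35, adjusted p = 0.680) and 0.24 at 2 h (SE 0.35, adjusted p = 0.792). The peaks were assigned to 2 starts that lie 6543 bp apart. The most enriched summit lay in the same place in all 6 libraries, 184 to 231 bp inside the downstream start. In 30 min replicate 2 and 2 h replicate 2 a single peak covered both starts, and in the other 4 libraries each start had a peak of its own.

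The genes of the pyruvate dehydrogenase step, by which pyruvate becomes acetyl-CoA in mitochondria, had no called change. Pdk1, the kinase that switches pyruvate dehydrogenase off, had 1327 and 1537 bp in NR, 592 and 1613 bp at 30 min and 1541 and 1693 bp at 2 h. A single library, 30 min replicate 1, was low. The log2 change was -0.65 at 30 min (SE 0.21, adjusted p = 0.544) and -0.31 at 2 h (SE 0.21, adjusted p = 0.578). Pdha1, a subunit of pyruvate dehydrogenase itself, had 1213 and 1189 bp, then 1388 and 1431 bp, then 1223 and 1269 bp. It had the narrowest range of the members, and it alone was longer in both 30 min libraries than in both 2 h libraries. After centring, its log2 change was 0.05 at 30 min (SE 0.29, adjusted p = 0.999) and -0.43 at 2 h (SE 0.29, adjusted p = 0.576). The peak also covers the start of the predicted gene Gm39547.

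The median of the pentose phosphate genes lay close to that of all genes, and none of them passed the threshold. Their log2 changes ran from -1.59 to 0.43 at 30 min and from -0.58 to 0.42 at 2 h. G6pdx, the first and NADPH-forming enzyme of the pathway, had 703 and 1494 bp in NR, 1267 and 2030 bp at 30 min and 1885 and 2136 bp at 2 h. The 2 h libraries exceeded NR, with a log2 change of 0.42 at 2 h (SE 0.24, adjusted p = 0.518), and the peak is shared in all 6 libraries with the start of Ikbkg, which encodes NEMO of the NF-kB pathway. Pgd, the next enzyme that yields NADPH, had 1310 and 1364 bp, then 321 and 1411 bp, then 1409 and 1588 bp. Only 30 min replicate 1 differed much from the others, and the log2 change at 30 min was -1.01 (SE 0.36, adjusted p = 0.572) and at 2 h -0.33 (SE 0.36, adjusted p = 0.722). Taldo1, transaldolase of the non-oxidative branch, had 541 and 706 bp in NR, no peak and 615 bp at 30 min, and 469 and 682 bp at 2 h. Its lowest value was again in 30 min replicate 1, with a log2 change of -1.59 at 30 min (SE 0.71, adjusted p = 0.678) and -0.58 at 2 h (SE 0.71, adjusted p = 0.745). Of the 6 genes, 4 (66.7%) were longer in both 2 h libraries than in both NR libraries, against 52.3% of all genes. In both 30 min libraries 0 were longer, against 11.5%. With 6 genes, these counts do not set the group apart. The median log2 change was -0.07 at 30 min and 0.01 at 2 h.

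Pgm1 and Pgm2 are named for phosphoglucomutases, and Gpd2 encodes the mitochondrial enzyme of the glycerol phosphate shuttle. All 3 genes were longer in both 2 h libraries than in both NR libraries, as were 52.3% of all genes. Their centred log2 changes at 2 h lay between -0.10 and 0.06. The genes called Pgm1 and Pgm2 in the files, on chromosomes 5 and 4, carry the opposite symbols in RefSeq, and were matched here by gene identifier.

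Summits within the whole gene gave little more. Over 31 members with a summit in the gene in at least 2 libraries, all but G6pdx and Rpia, the test called 1 gene, Pgd. It had 0 summits in both NR libraries, 1 in each 30 min library and 0 in both 2 h libraries (adjusted p = 0.00715 at 30 min and 0.00613 between the times). Over all genes 1.24% were called with more summits at 30 min and 0.838% with fewer, 2.4% and 0.855% at 2 h, and 1.76% and 0.631% between the times. For Pgd the summit lay at -687 and -32 bp from the start in NR, 111 and 51 bp at 30 min and -658 and -161 bp at 2 h, with negative values upstream, so the count records on which side of the start the summit fell. Of all calls, 97.6% at 30 min, 96.2% at 2 h and 99.0% between the times were genes with equal counts in both libraries of every group, for which no spread was measured. Hk2 had the widest range of summits, 4 and 2 in NR, 10 and 5 at 30 min and 8 and 5 at 2 h.

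The other genes of the same pathways gave no call. Of 54 further genes, such as other isoenzymes, pyruvate dehydrogenase subunits and the prolyl hydroxylases that mark HIF for destruction, 37 could be tested and 0 passed the threshold in any comparison. At an unadjusted p under 0.05, 0 were longer (5.85% of all genes) or shorter (2.15%) at 30 min, and 4 were longer (7.95%) and 2 shorter (4.65%) at 2 h. Their median log2 change was -0.16 at 30 min and 0.00 at 2 h, against -0.04 and -0.03 for all genes. Of the 37, 18 (48.6%) were longer in both 2 h libraries than in both NR libraries, against 52.3% of all genes. At 30 min 1 was (2.70%, against 11.5%), and 10 were longer in both 2 h than in both 30 min libraries (27.0%, against 17%). Hk3, a further hexokinase, had no peak in NR or in 30 min replicate 1, 896 bp in 30 min replicate 2, and 997 and 925 bp at 2 h, with a log2 change of 2.93 at 2 h (SE 0.95, adjusted p = 0.329). Its peaks had their summits at -1376 bp from the start at 30 min and at -1361 and -1392 bp at 2 h, upstream of the gene. Eno3, the muscle enolase, had 11359 bp in 30 min replicate 2, 11255 bp in 2 h replicate 2 and none elsewhere (log2 change 3.26 at 30 min, SE 2.74, adjusted p = 0.777). Those peaks had their summits at -2629 and -2603 bp, upstream of Eno3, so their length is not a measure of that gene. Pdk3, a pyruvate dehydrogenase kinase, had 712 and 888 bp in NR and no peak and 815 bp at 30 min (log2 change -1.73, SE 0.78, adjusted p = 0.680).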

How the data were processed

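Polymerase II ChIP-seq was analysed in 6 libraries, 2 per group. The 3 H3K36me3 libraries and 1 input library were not analysed here. Per the submitters' processing notes, which give no roles, BWA 0.7.13, Picard 1.119, MACS2 2.1.0 and build mm10 were used. The authors called peaks in each library and deposited, per the file headers and values, each promoter peak's width, its pileup signal at the summit, its fold enrichment (a ratio to background) and its −log10 p and q-value, with the gene assigned. The deposited summit lists give a −log10 q score per summit. Peak heights only ranked peaks within a list.

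Widths were summed per gene, taken as log2(bp + 100) and centred on the median of the 7410 genes detected in every library. The 9908 of 10419 genes with assigned peaks in 2 or more libraries were fitted with limma 3.58.1 in R 4.3.3 (lmFit, eBayes with trend, group only, all 6 libraries, two-sided), with Benjamini-Hochberg adjustment over all genes and a threshold of 0.05. Summits between a gene's RefSeq start and end were fitted likewise as log2(count + 1) over 12052 genes. The scripts were tested on simulated data. Genes were matched to RefSeq by identifier (33 of 33). The members and lists were chosen with earlier results of these data known. Values per library are given for members past a threshold, the 5 highest and 3 lowest log2 changes of each comparison and 14 preset genes, and of the other pathway genes for the 2 with the largest absolute change from NR. Alternatives changed the pseudocount, filters, centring, gene assignment, list length, q-value minimum, libraries and replicate block.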

Additional observations from a re-analysis of the deposited data

How the results depend on the processing

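Called length and presence depend on depth, the files give no read totals, and each group has 2 libraries; where one is left out, the lone library is assumed to vary like the others. Fits with a library left out hold a group of 1 library, and their calls are not counted here. Over all alternatives the log2 change in called length ran from -1.54 to -0.48 for Pgd at 30 min. For Gapdh at 2 h it ran from 1.16 to 1.87. With a peak required in all 6 libraries 1 member passed at 30 min (Pkm, with 52 longer and 1 shorter over all genes). With only the 4 libraries compared 1 passed at 2 h (Gapdh, with 147 and 29) and 0 at 30 min. Other alternatives that kept all 6 libraries gave 0. For summits, lists of equal length gave 2 members at 30 min, with 194 more and 121 fewer over all genes. These lists gave 1 member at 2 h, with 320 and 156. Summit calls with a library left out are likewise not counted, in any of the 3 comparisons. The alternatives for the counts of non-overlapping lengths and of downstream reach were chosen after seeing the data, as was the limit of reach to genes measured from 1 start. The 8 members longer in both 30 min libraries became 5 of 25 without members whose peak covers another start (11.5% of all genes). Without a library they became 8 to 31 (12.3% to 86.4% of all genes), 31 being without 30 min replicate 1. The 27 at 2 h became 14 with centred lengths (22.3% of all genes). They became 20 of 25 without members whose peak covers another start (52.3%). With a library left out they ranged from 27 (53.5% and 53.9%) to 32 (85.0%, without 2 h replicate 1). The downstream count of 24 of 28 ranged from 24 (63.5% and 62.7%) to 28 (87.9%, without 2 h replicate 1). The replicate block, from numbers the labels do not explain, left 0 members called in length in each comparison and 1, 0 and 1 for summits; same-numbered libraries deviated together across genes (r = 0.442, 0.269 and 0.408). Over all genes, calls moved from 23 longer and 1 shorter to 5 and 2 at 30 min, and from 37 and 6 to 147 and 29 at 2 h, with only the 4 libraries compared. Of 939 recomputed values of single genes 0 reversed a call and 53 turned sign without one. The cause of these differences was not tested.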
